A study of Macaca mulatta with 24 samples.

Results

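The genes described here are signals and markers of intestinal repair: the epidermal growth factor (EGF) family ligands EREG (epiregulin), AREG (amphiregulin), HBEGF and NRG1 (neuregulin 1), the receptor EGFR, the YAP target genes CTGF and CYR61, and CLU (clusterin) and ANXA1 (annexin A1), which mark regenerating epithelium. Every array probe whose gene symbol in the deposited ileum table was one of these 9 names was taken. By symbol, 8 of the 9 genes had a probe, and together they had 18 of the 43603 probes that were not controls: 5 for NRG1, 3 each for EGFR and CYR61, 2 each for HBEGF and CLU, and 1 each for EREG, ANXA1 and CTGF. AREG had no probe under that symbol. A probe with the symbol AREGB, described in the files as amphiregulin, was noticed by its name, lies outside the rule, and is given separately.

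EGF family ligands are made as membrane-bound precursors, released by shedding proteases, and bind receptors of the EGFR family, which signal through ERK to a set of immediate response genes. EREG, AREG and HBEGF bind EGFR, whereas NRG1 binds ERBB3 and ERBB4, and NRG1 in the gut is known as a signal from stromal cells to crypt stem cells. YAP is a transcriptional co-activator held back by the Hippo kinases, and in injured intestine its activity is known to accompany a temporary repair state of the crypt in which clusterin and annexin A1 are produced and the classical stem cell program is reduced.

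The study asked how gene expression in the gut of nonhuman primates changes after total-body irradiation (TBI). Ileum was taken from 24 young-adult male rhesus macaques, 1 array per animal, with no genetic modification or drug named. Unirradiated animals (n = 4) were compared with animals that received a single uniform dose of cobalt-60 gamma rays, either 6.7 Gy or 7.4 Gy, and were examined on day 4 (n = 4 per dose), day 7 (n = 4 per dose) or day 12 (n = 2 per dose). The same 4 unirradiated animals, labelled day 4, served every day and both doses, so the 6 comparisons with them are not independent of each other; the day 12 animals carry 12 in their titles, day field and the methods, but 21 in the protocol text. RNA came from pieces of the whole gut wall, so each value mixes epithelium, muscle, connective tissue, vessels, nerves and lymphoid cells, and fewer cells of a type and less RNA per cell cannot be told apart.

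All values are levels on a log2 scale: the background-subtracted intensity of a probe relative to the 75th percentile of the probes on its array, so 0 is the 75th percentile and 1 unit is a 2-fold difference. Levels of different probes are not comparable, and only differences between animals at 1 probe are read. Per array, 72.7% to 88.1% of probes were well above background, no spot was saturated, and all 18 probes were well above background on every array except the third EGFR probe, which was on 23. A change was called when limma, fitted over 36110 probes, gave a Benjamini-Hochberg adjusted p under 0.05 and a difference of at least 2-fold. The ileal bile acid genes FABP6 and SLC10A2 were well above background in all animals, with group means of 8.06 to 9.06 for FABP6 and 2.80 to 3.85 for SLC10A2. The unirradiated animal replicate 1 stood apart from the other controls: its mean over 4 smooth muscle markers was 2.84 against a group median of 4.99, and over 5 enteric neuron markers -3.75 against -2.38. Array position and group went together: all controls were in position 1 of their slides, all arrays of day 4 after 7.4 Gy in position 2, those of day 4 after 6.7 Gy in positions 1 and 2, and those of days 7 and 12 in positions 3 and 4. For days 7 and 12 position and irradiation cannot be told apart, and for day 4 after 7.4 Gy they can be separated only through the 6.7 Gy arrays. Slides 5 and 6, scanned on the second of 2 days, held no control, 2 of the 4 arrays each of day 4 at both doses and of day 7 after 7.4 Gy, and both arrays of day 12 after 7.4 Gy.

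On day 4, CTGF rose 2.36-fold after 7.4 Gy and was the only 1 of the 18 probes called against the unirradiated animals on any day. Among all probes tested, 2.33% were called in that comparison. After 6.7 Gy on day 4, 0 of the 18 were called by limma against 0.978% of all probes. No member was called on day 7 after 6.7 Gy (0.235% of all probes) or 7.4 Gy (0.568%), nor on day 12 after 6.7 Gy (0.108%) or 7.4 Gy (0.0443%). At an unadjusted limma p under 0.05 and any fold, 5 of the 18 probes passed on day 4 at each dose, where 22.9% and 23.6% of all probes did. On day 7 the counts were 0 after 6.7 Gy and 2 after 7.4 Gy (9.36% and 13.4% of all probes), and the day 12 counts were 0 and 2 (8.98% and 8.13%). Taking the brightest probe of each gene, 7 of the 8 genes lay above the unirradiated mean on day 4 at each dose, with HBEGF the exception. The median change was 0.20 after 6.7 Gy and 0.60 after 7.4 Gy against -0.10 and -0.07 over all probes. Over the 18 probes, 13 lay above it after 6.7 Gy and 14 after 7.4 Gy, where 38.8% and 42% of all probes did. Control replicate 1 was the lowest control for CTGF, CYR61, CLU and EGFR, so these genes share its pull on the control mean.

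**Figure D1:**
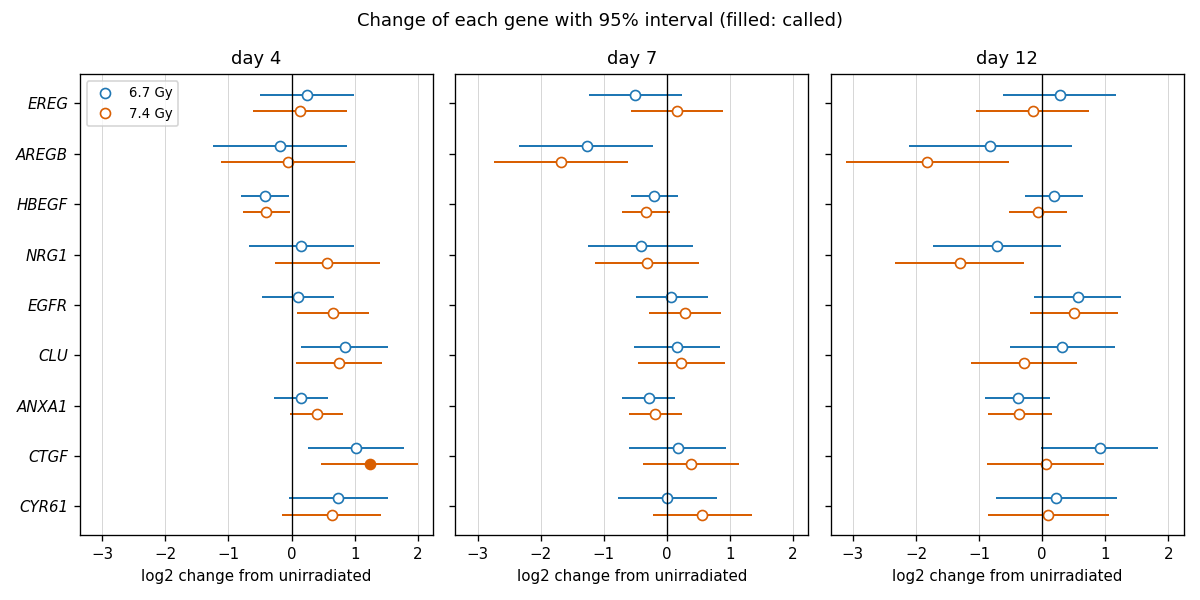
Log2 change from the unirradiated animals (x axis) for the brightest probe of each gene and for AREGB (y axis), in 1 panel per day, with 95% intervals from limma as lines, 6.7 Gy in blue and 7.4 Gy in orange. The filled point, CTGF after 7.4 Gy on day 4 at 1.24, is the only called change, and AREGB after 7.4 Gy lies farthest below 0 on days 7 and 12, at -1.68 and -1.82, neither of them called.

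CTGF (connective tissue growth factor, also CCN2; probe A_01_P1685426) encodes a secreted matrix-associated protein and is a classical readout of YAP. In the 4 unirradiated animals its level was -4.16, -3.72, -3.71 and -4.12. On day 4 after 7.4 Gy it was -2.31, -3.07, -2.75 and -2.63, so every irradiated animal was above every control. On day 4 after 6.7 Gy the levels were -3.95, -1.99, -2.77 and -2.91, with 3 of 4 animals above all controls and replicate 1 within them.

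The CTGF change on day 4 after 7.4 Gy was 1.24 (SE 0.36, 95% interval 0.49 to 1.99, limma adjusted p = 0.043). After 6.7 Gy it was 1.02 (SE 0.36, interval 0.27 to 1.77, adjusted p = 0.11). The difference between the doses, 0.22 with an interval of -0.53 to 0.97, did not pass (adjusted p = 0.93), so a called change at 1 dose and not at the other does not show that the doses differed. The 7.4 Gy call rested on a narrow margin: it was kept without 7.4 Gy replicate 2 (1.37, adjusted p = 0.045) but lost without any other of the 8 animals (1.11 to 1.31, adjusted p = 0.06 to 0.14), and also with slide as a block (1.30, adjusted p = 0.068) or array position as a covariate (1.11, adjusted p = 0.44). For 6.7 Gy, leaving out replicate 1 of that group gave 1.37 with an adjusted p of 0.038.

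By day 7 the CTGF levels spread across the control range, from -4.21 to -3.29 after 6.7 Gy and from -4.52 to -2.62 after 7.4 Gy. The day 12 pairs were -3.31 and -2.74 after 6.7 Gy, both above all controls, and -3.78 and -3.96 after 7.4 Gy, inside the control range. In order of group mean, CTGF was highest on day 4 after 7.4 Gy (-2.69 ± 0.32, SD, n = 4) and after 6.7 Gy (-2.91 ± 0.81), followed by day 12 after 6.7 Gy (-3.02 ± 0.40, n = 2), day 7 after 7.4 Gy (-3.55 ± 0.78) and 6.7 Gy (-3.76 ± 0.41), day 12 after 7.4 Gy (-3.87 ± 0.13, n = 2) and the controls (-3.93 ± 0.25). No step between neighbours in this order exceeded the larger SD of its pair. Differences between days did not pass either: -0.85 and -0.86 from day 4 to day 7 (adjusted p = 0.21 and 0.20) and -1.18 from day 4 to day 12 after 7.4 Gy (adjusted p = 0.14).

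CYR61 (CCN1), the other CCN family member taken here as a YAP target, encodes a secreted matrix protein of the same build. Its brightest probe read -3.01, -2.66, -2.04 and -2.11 in the controls. On day 4 it read -2.13, -1.10, -1.37 and -2.26 after 6.7 Gy, and -1.22, -2.18, -1.76 and -2.07 after 7.4 Gy, so both groups overlapped the controls. The changes were 0.74 (SE 0.37, interval -0.03 to 1.51, adjusted p = 0.24) and 0.64 (SE 0.37, interval -0.13 to 1.41, adjusted p = 0.30). The 3 CYR61 probes followed each other over the 24 arrays (r = 0.93 to 0.96), and the other 2 gave 0.83 and 0.83 after 6.7 Gy, 0.85 and 0.76 after 7.4 Gy. On day 7 after 7.4 Gy the brightest probe read -1.85, -1.94, -2.86 and -0.91, with 3 of 4 animals above every control. The 3 probes gave 0.56, 0.72 and 0.88 (adjusted p = 0.53, 0.46 and 0.33), while after 6.7 Gy the brightest gave 0.01 on that day. Replicate 4, at -0.91, was the highest of the 24 animals for CYR61 and the highest of its group for CTGF. Without it the 3 CYR61 probes gave 0.24, 0.34 and 0.54. Across the 24 arrays CTGF and CYR61 correlated at r = 0.77, given as a description over animals that share arrays, tissue mix and treatment groups.

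**Figure D2:**
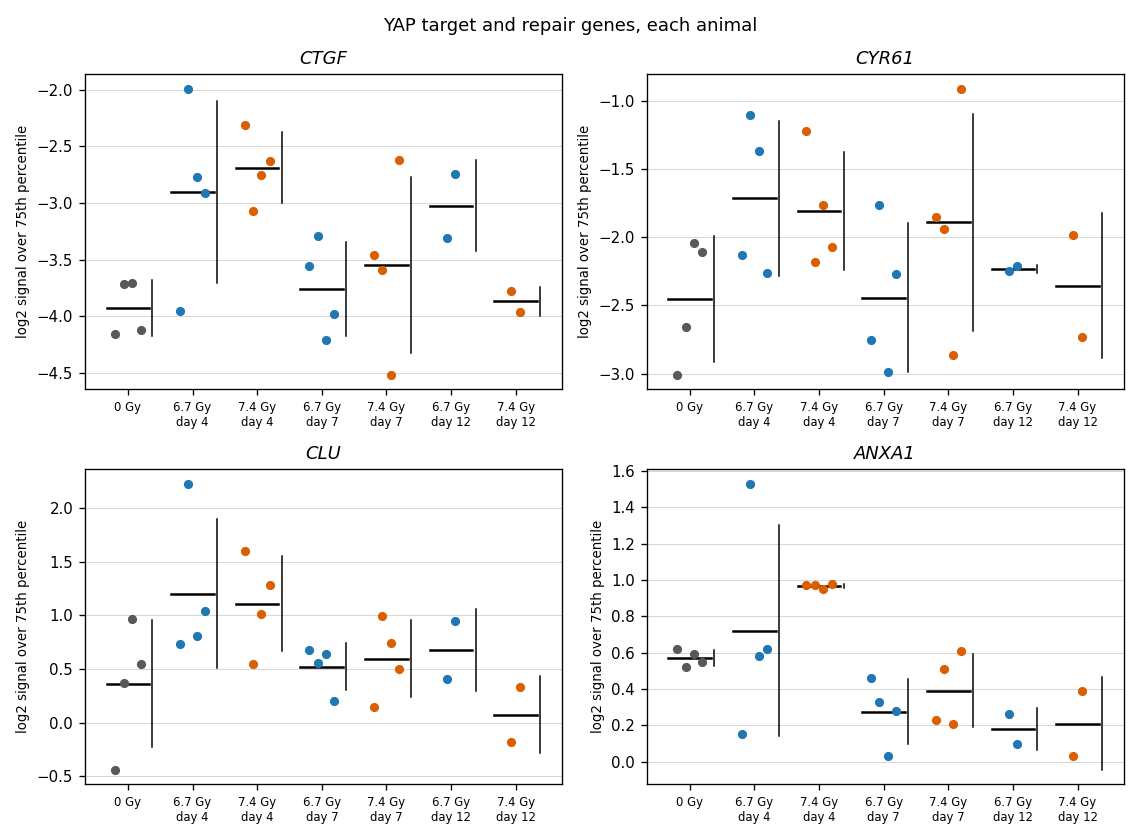
Level of CTGF, CYR61, CLU and ANXA1 (y axis, log2 intensity relative to the 75th percentile of the array, brightest probe) in each animal by group (x axis); points are animals, horizontal bars group means and vertical lines 1 SD to each side, n = 4 per group and 2 on day 12. All 4 animals on day 4 after 7.4 Gy lie above all 4 controls for CTGF and ANXA1, while CYR61 and CLU overlap the controls in every irradiated group.

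CLU and ANXA1, the repair markers, were not called on any day. CLU encodes a secreted chaperone and marks the revival stem cells that appear in damaged crypts. Its brightest probe read -0.44, 0.37, 0.97 and 0.55 in the controls, against 0.73, 2.23, 0.81 and 1.04 on day 4 after 6.7 Gy. After 7.4 Gy it read 1.60, 0.55, 1.01 and 1.28 on that day. The highest control lay above 2 of 4 animals after 6.7 Gy and 1 of 4 after 7.4 Gy. The changes were 0.84 (SE 0.32, interval 0.17 to 1.51, adjusted p = 0.14) and 0.75 (SE 0.32, interval 0.08 to 1.42, adjusted p = 0.16), and the second probe gave 0.88 and 0.85 (adjusted p = 0.12 and 0.10). Control replicate 1 was the lowest, and without it the changes of the brightest probe were 0.57 and 0.48. Without the highest animal after 6.7 Gy, replicate 2, the 6.7 Gy change was 0.50, and with array position as a covariate the 7.4 Gy change was 1.31 (adjusted p = 0.26). By day 7 CLU was 0.16 and 0.23 from the controls, and on day 12 it was 0.32 and -0.29.

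ANXA1 encodes a phospholipid-binding protein that limits inflammation and promotes closure of epithelial wounds. Its controls were close together, at 0.62, 0.52, 0.59 and 0.55. On day 4 after 7.4 Gy it was 0.97, 0.97, 0.95 and 0.98, above every control, while after 6.7 Gy it was 0.15, 1.53, 0.58 and 0.62 and overlapped them. The 7.4 Gy change was 0.40 (SE 0.19, interval -0.01 to 0.80, adjusted p = 0.22) and lay under the 2-fold limit. Later, 3 of the 4 groups lay on the other side: on day 7 after 6.7 Gy they were 0.46, 0.33, 0.03 and 0.28, the day 12 pairs were 0.26 and 0.10 after 6.7 Gy and 0.03 and 0.39 after 7.4 Gy, and all of these lay below every control. Those changes were -0.29, -0.39 and -0.36 (adjusted p = 0.71, 0.66 and 0.77). Day 7 after 7.4 Gy overlapped the controls, at 0.23, 0.51, 0.21 and 0.61, with a change of -0.18 (adjusted p = 0.72). From day 4 to day 7 after 7.4 Gy ANXA1 changed by -0.58 (SE 0.19, adjusted p = 0.10) and to day 12 by -0.76 (SE 0.24, adjusted p = 0.081).

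EREG, a ligand made at low levels in resting gut, had 1 probe. Its controls ranged widely, at -2.80, -3.20, -4.68 and -4.46, and every irradiated group overlapped them. On day 4 the changes were 0.25 (interval -0.48 to 0.97) after 6.7 Gy and 0.13 (interval -0.59 to 0.86) after 7.4 Gy. Over the later days they ran from -0.50, on day 7 after 6.7 Gy, to 0.28. Control replicate 1 was the highest control, at -2.80. Without it the control mean is lower, so the day 4 changes are larger and the fall on day 7 after 6.7 Gy is smaller. From day 4 to day 7 after 6.7 Gy, EREG went from -3.58, -3.50, -3.79 and -3.28 to -4.78, -4.10, -3.88 and -4.35, without overlap, but the change of -0.74 did not pass (adjusted p = 0.25).

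In the RefSeq annotation of the macaque assembly T2T-MMU8v2.0 the protein-coding neighbours of EREG are AREG and EPGN, other EGF family ligands. The AREGB probe read -0.59, -2.25, -3.10 and -2.44 in the controls. On day 4 it read -3.00, -2.01, -2.91 and -1.20 after 6.7 Gy, and -0.96, -2.99, -1.91 and -2.76 after 7.4 Gy, with changes of -0.19 and -0.06. On day 7 it read -3.38, -3.13, -3.21 and -3.75 after 6.7 Gy, below every control, and -3.78, -2.91, -3.88 and -4.51 after 7.4 Gy, where 1 animal lay within the controls. The changes of -1.27 (SE 0.50, interval -2.32 to -0.23, adjusted p = 0.40) and -1.68 (SE 0.50, interval -2.72 to -0.63, adjusted p = 0.13) did not pass. On day 12 the pair after 7.4 Gy read -3.93 and -3.91, again below every control, with a change of -1.82 (SE 0.61, adjusted p = 0.35). The pair after 6.7 Gy read -3.16 and -2.67 and overlapped the controls, with a change of -0.82 (adjusted p = 0.72). Control replicate 1 was the highest of the 24 animals, and without it the day 7 changes were -0.77 and -1.17 and the day 12 change after 7.4 Gy was -1.32. The day 4 group means, -2.28 after 6.7 Gy and -2.15 after 7.4 Gy, lay above the mean of the other controls. Without replicate 1 the small day 4 changes therefore turn upward, and the day 12 change after 6.7 Gy (group mean -2.91) shrinks.

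HBEGF encodes a heparin-binding ligand of EGFR that epithelial and myeloid cells release on injury. Its brightest probe read 1.99, 1.13, 1.01 and 0.89 in the controls. On day 4 it read 0.95, 0.76, 0.84 and 0.81 after 6.7 Gy, and 0.86, 0.97, 1.02 and 0.57 after 7.4 Gy, overlapping the lower controls. The changes were -0.42 (SE 0.17, interval -0.78 to -0.05, adjusted p = 0.16) and -0.40 (SE 0.17, interval -0.76 to -0.04, adjusted p = 0.17). Both rested on control replicate 1, without which they were -0.17 and -0.16. That animal was also the highest at the second HBEGF probe, at 2.97 against 0.36 to 1.22 in the other controls. On day 12 after 6.7 Gy, HBEGF was 1.59 and 1.28, above all 4 animals of that dose on day 4, a difference of 0.60 (SE 0.21, adjusted p = 0.080), but the second probe differed by -0.36 in the same comparison. The 2 probes correlated at r = 0.54 over the 24 arrays.

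EGFR, the shared receptor of EREG, amphiregulin and HBEGF, read -1.97, -1.88, -1.62 and -1.30 in the controls at its brightest probe. On day 4 after 7.4 Gy it read -1.23, -1.04, -0.80 and -1.07, above every control, and after 6.7 Gy -1.25, -1.16, -1.60 and -2.38, on both sides of them. The 7.4 Gy change of 0.66 (SE 0.27, interval 0.10 to 1.21) did not pass (adjusted p = 0.14), and with array position as a covariate it was 1.44 (adjusted p = 0.12). The second probe, which followed the first over the arrays (r = 0.91), gave 0.45 with overlap. The third and dimmest probe, designed to another transcript, gave -0.30 and followed the first less closely (r = 0.43). On day 12 after 7.4 Gy the brightest probe read -1.22 and -1.14, again above every control (0.51, interval -0.17 to 1.19, adjusted p = 0.76).

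**Figure D3:**
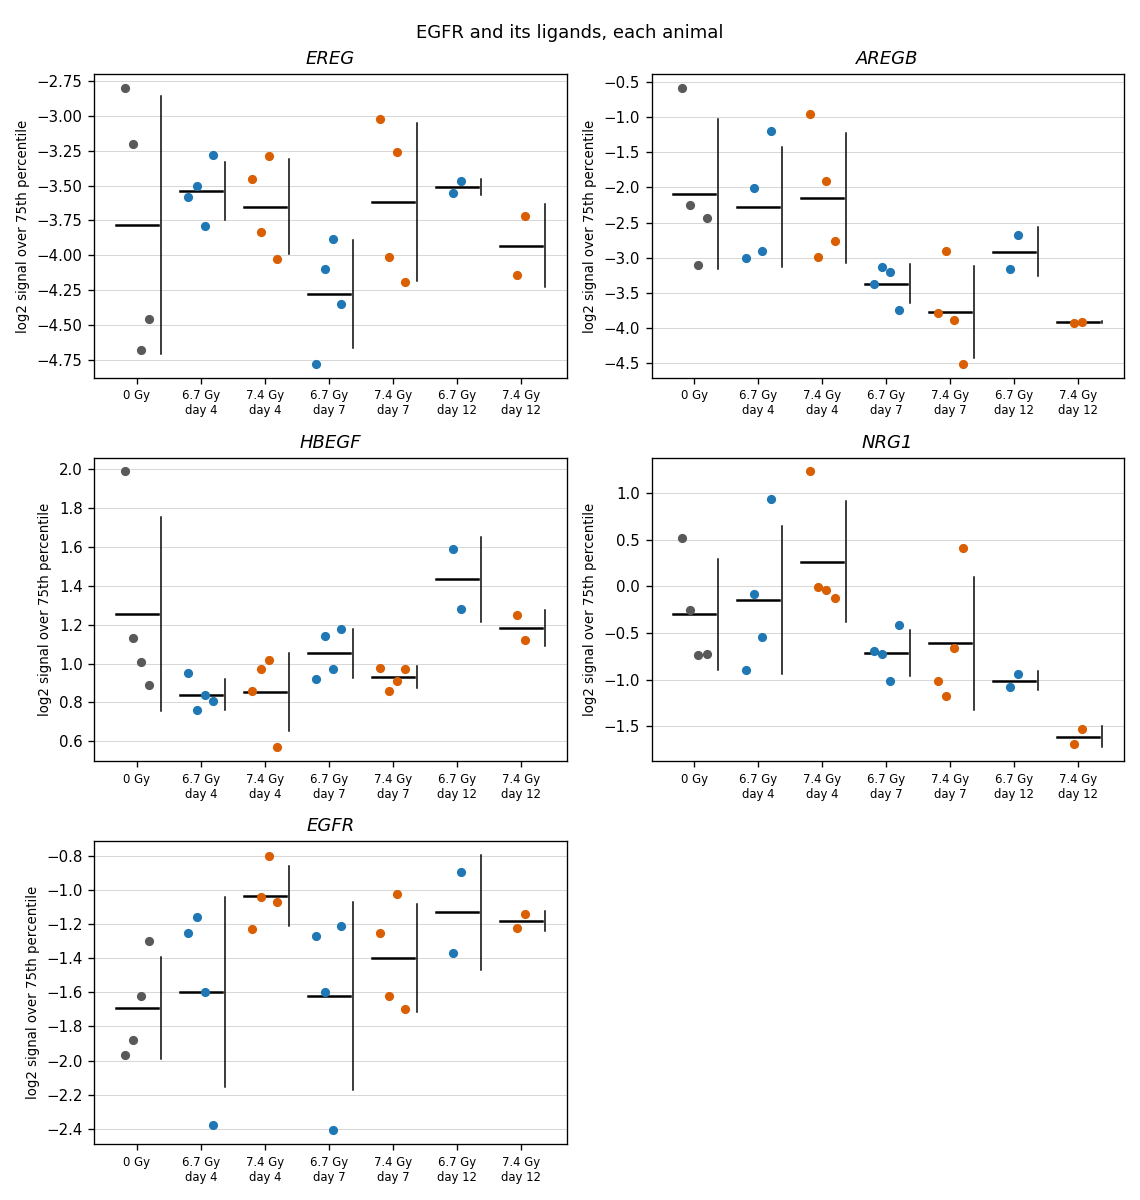
Level of EREG, AREGB, HBEGF, NRG1 and EGFR (y axis, log2 intensity relative to the 75th percentile of the array, brightest probe) in each animal by group (x axis); points are animals, horizontal bars group means and vertical lines 1 SD to each side, n = 4 per group and 2 on day 12. A single control animal is the highest of its group for all 4 ligands, at 1.99 for HBEGF, and EGFR on day 4 after 7.4 Gy lies above all controls.

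NRG1 had 5 probes designed to different transcripts, and they did not move together: over the 24 arrays pairs of probes correlated at r = 0.17 to 0.81. The brightest probe (A_01_P1737856) read 0.52, -0.25, -0.74 and -0.73 in the controls and 1.23, -0.01, -0.04 and -0.13 on day 4 after 7.4 Gy, where replicate 1 stood far above the others. On day 12 after 7.4 Gy it read -1.69 and -1.53, the lowest levels of the 24 animals. The difference between those days was -1.87 (SE 0.48, interval -2.87 to -0.87, limma adjusted p = 0.038), a fall and the only 1 of 18 probes called in that comparison, in which 1.8% of all probes were called. The other 4 NRG1 probes differed by -0.15, -0.60, 0.04 and -0.82 between those days (adjusted p = 0.75, 0.30, 0.98 and 0.16). Against the controls the day 12 pair was -1.31 (interval -2.31 to -0.31, adjusted p = 0.42). The fall was no longer called without 7.4 Gy day 4 replicate 1 (-1.55, adjusted p = 0.11) or without either day 12 animal (-1.79 and -1.95, adjusted p = 0.24 and 0.15), a fit that takes the spread of the lone animal from the remaining groups. It was also lost with slide as a block (-1.60, adjusted p = 0.085) and with the replicate block (-1.86, adjusted p = 0.057). At 6.7 Gy none of the 18 was called between these days (0 by limma, against 2.59% of all probes), and NRG1 differed by -0.87 (adjusted p = 0.25).

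The fourth NRG1 probe (A_01_P1737861) gave the other called change. It read -2.57, -2.69, -2.67 and -3.27 on day 4 after 7.4 Gy and -3.33, -5.82, -3.92 and -3.75 on day 7, without overlap, and the fall was -1.41 (SE 0.39, interval -2.22 to -0.59, adjusted p = 0.049), 1 of 18 probes against 0.942% of all. Replicate 2 of day 7 was the lowest by far, and without it the difference was -0.87 (adjusted p = 0.11). This call was kept without day 7 replicate 1 (-1.70, adjusted p = 0.031) and lost without each of the other 6 animals (adjusted p = 0.054 to 0.13 over all 7). With slide as a block the fall was -1.47 and not called (adjusted p = 0.063), and the test named in the methods gave an adjusted p of 0.27. On day 12 the probe read -2.72 and -2.81 after 7.4 Gy and -2.49 and -2.56 after 6.7 Gy, within the control range of -3.58 to -2.30, while the brightest NRG1 probe was at its lowest. Between days 4 and 7 after 6.7 Gy, 0 of 18 probes were called by limma (0.354% of all probes), with -0.66 at the fourth probe (adjusted p = 0.36).

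**Figure D4:**
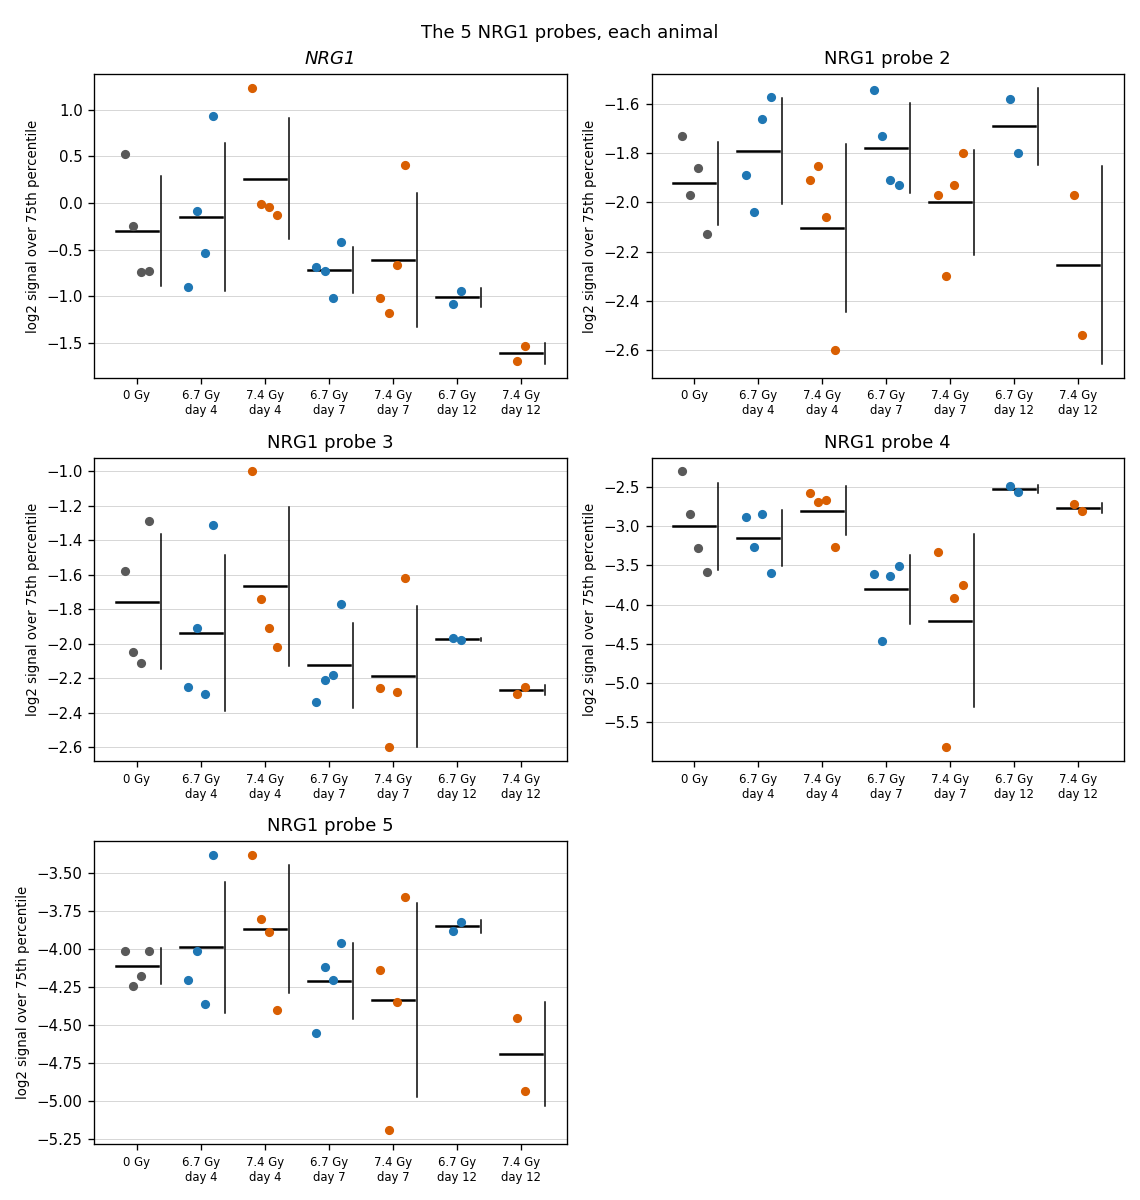
Level of each of the 5 NRG1 probes (y axis, log2 intensity relative to the 75th percentile of the array; the panel named NRG1 is the brightest probe) in each animal by group (x axis); points are animals, horizontal bars group means and vertical lines 1 SD to each side, n = 4 per group and 2 on day 12. On day 12 after 7.4 Gy the brightest probe is at its lowest, at -1.69 and -1.53, whereas the fourth probe lies within the controls, and its lowest animal is on day 7 after 7.4 Gy at -5.82.

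Between the doses, 0 of 18 probes were called by limma on day 4 and 0 of 18 on day 7, where 0% of all probes were called on either day. At an unadjusted limma p under 0.05, 1 of 18 passed on day 4 (5.54% of all probes) and 0 on day 7 (4.02%). The probe that passed on day 4 was the brightest of EGFR, higher after 7.4 Gy by 0.56 (interval 0.01 to 1.12, adjusted p = 0.88), by 0.95 with array position as a covariate (adjusted p = 0.38), and by 0.30 without the lowest 6.7 Gy animal, replicate 4. For CTGF on day 7 the doses differed by 0.21, with an interval of -0.54 to 0.96.

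Other members of the same pathways were read from gene lists. These lists were chosen with earlier results of these data known, so their counts describe the data and are not independent evidence. Of 7 further EGF family ligands, 3 were tested and none was called by limma in any comparison with the controls. EGF itself had a probe that did not enter the fit. TGFA was -0.28 and -0.29 from the controls on day 4, BTC -0.67 and 0.05, and NRG4 -0.73 and -0.76 (adjusted p = 0.24 and 0.21). The co-receptor ERBB2 was -0.63 and -0.55 (adjusted p = 0.24 and 0.31), and ERBB4 was well above background in 1 of 4 controls. ERBB3 had no probe. From day 4 to day 12 after 6.7 Gy, 1 of the 2 tested receptors, ERBB4, was called higher. ADAM10, a sheddase of EGF family ligands, was 0.01 and -0.07, and ADAM17, another sheddase, had no probe. The 2 tested shedding genes, ADAM10 and RHBDF2, had medians of 0.21 and 0.11 on day 4. On day 7 after 7.4 Gy both lay below the control mean, with a median of -0.27, and neither was called against the controls on any day. The 14 tested feedback inhibitors of EGFR signaling, such as ERRFI1 and SPRY4, had 0 calls against the controls on any day and medians of -0.02 and 0.08 on day 4. Among them LRIG1, which promotes degradation of EGFR, was 0.76 and 0.68 from the controls on day 4 (adjusted p = 0.024 at both doses), under the 2-fold limit, and above every control in all 6 irradiated groups. SPRY1, an inhibitor of the ERK cascade, was 0.59 and 0.68 (adjusted p = 0.087 and 0.038).

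Among genes that respond to EGFR and ERK signaling, 3 were called on day 4. EGR1, an immediate early transcription factor, rose on day 4 by 1.53 (SE 0.26, adjusted p = 0.0037) after 6.7 Gy and 1.46 (SE 0.26, adjusted p = 0.0031) after 7.4 Gy, from a control range of -5.27 to -4.48 to -4.32 to -2.74 and -3.88 to -2.99. MYC, a driver of cell growth, rose by 1.05 and 1.01 (adjusted p = 0.021 and 0.015), and its second probe gave 1.05 and 1.06. IER3, a stress-induced survival gene, rose by 1.26 after 7.4 Gy (adjusted p = 0.026). All 6 tested genes of the list were above the controls at both doses, 2 of 6 were called after 6.7 Gy and 3 of 6 after 7.4 Gy, and the list medians were 0.98 and 1.13 against -0.10 and -0.07 over all probes. On days 7 and 12, 0 of 6 were called. These genes also respond to many other stimuli.

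On the YAP side, YAP1 itself was 0.13 and -0.01 from the controls on day 4, and none of the 13 tested genes of the Hippo-YAP core was called against the controls on any day. WWTR1, also on that core list, had no probe. Of 14 further YAP target genes tested, 2 rose on day 4 after 7.4 Gy: PTPN14, a phosphatase that restrains YAP, by 1.26 (SE 0.27, adjusted p = 0.012) and RBMS3, an RNA-binding protein, by 1.11 (SE 0.23, adjusted p = 0.0082). A second probe of each gave 0.34 and 0.69 and was not called. After 6.7 Gy none of the 14 was called. The list medians were 0.21 and 0.45 on day 4, with 10 and 13 of 14 genes above the controls, and lay between -0.05 and 0.03 on days 7 and 12. Of 10 tested genes of the regenerating epithelium list, only ANXA3, an annexin like ANXA1, was called against the controls. It rose on day 4 by 1.69 (SE 0.42, adjusted p = 0.038) after 6.7 Gy and 2.23 (SE 0.42, adjusted p = 0.0049) after 7.4 Gy, and its second probe gave 1.73 and 2.18. The list medians were 0.30 and 0.17. The formyl peptide receptors FPR1 and FPR3 were 0.49 and -0.37 after 6.7 Gy and 0.24 and -0.24 after 7.4 Gy.

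Marker genes of other cell types also differed from the controls on day 4. On day 4 after 7.4 Gy all 8 fibroblast markers were above the controls and 3 of 8 were called (COL3A1 1.01, DCN 1.26, LUM 1.09). The other COL3A1 probes gave 0.56, 0.65 and 0.83 and were not called. The other DCN probes gave 1.07 and 0.98 (limma adjusted p = 0.018 and 0.042), the latter under the 2-fold limit. The mean level of the 8 fibroblast markers was 1.43 to 2.05 in the 7.4 Gy animals against 0.33 to 0.95 in the controls. After 6.7 Gy it was 0.91 to 1.90. The 6.7 Gy animal highest in CTGF, replicate 2, was also the highest of its group in fibroblast, smooth muscle, endothelial, enteric glia, enteric neuron, macrophage, mast cell and red cell markers. It was the lowest in epithelial, B cell and follicular dendritic cell markers. The 7.4 Gy animal highest in CTGF, replicate 1, was also the highest of its group in fibroblast, smooth muscle, endothelial, enteric glia, macrophage, mast cell and red cell markers. That animal was the lowest in epithelial, ileum and T cell markers and the highest at the brightest NRG1 probe. Smooth muscle markers had medians of 0.27 and 0.64 on day 4 with 0 of 4 called. Enteric neuron markers had medians of 0.81 and 1.01 with 2 of 5 called after 7.4 Gy (ELAVL4 and SNAP25). A second probe of each gave 1.12 and 0.85 after 7.4 Gy and was not called. Endothelial markers had medians of 0.05 and 0.31 with 1 of 5 called after 7.4 Gy. Control replicate 1 was the lowest control for smooth muscle and enteric neuron markers, and without it the medians were -0.08 and 0.17 for smooth muscle, turning the direction after 6.7 Gy, and 0.37 and 0.48 for enteric neurons. Epithelial markers had medians of -0.63 at both doses, with 2 of 7 called after 6.7 Gy (VIL1 -1.32, KRT20 -1.05) and 1 of 7 after 7.4 Gy (VIL1 -1.27). Their mean level was 4.60 to 5.09 in the controls and 3.84 to 4.46 and 4.07 to 4.33 on day 4, so the ranges did not overlap. Among blood cells, B cell markers had medians of -1.54 and -1.34 on day 4 with 2 and 1 of 4 called. Red cell markers had medians of -3.21 and -3.03 with 1 of 2 called at each dose, midpoints of 2 genes that changed by very different amounts. The called gene, HBB, had a group mean of 1.86 in the controls, -4.25 after 6.7 Gy and -4.01 after 7.4 Gy. Neutrophil markers had medians of 1.26 and 0.79 with 1 of 4 called after 7.4 Gy. That gene was FCGR3, with a group mean of -2.60 against -3.73 in the controls. Macrophage markers had medians of 0.11 and 0.21 with 1 of 3 called after 7.4 Gy. Without replicate 4 of day 4 after 6.7 Gy, the highest of its group, the neutrophil median after 6.7 Gy was 0.64. The mean macrophage marker level was 1.08 to 1.59 after 7.4 Gy and 0.68 to 1.08 in the controls. On day 4 none was called of 6 T cell markers (medians -0.51 and -0.24), 5 mast cell markers (-0.22 and -0.09), 4 follicular dendritic cell markers (-0.03 and -0.17), 3 enteric glia markers (0.33 and 0.71) or 5 ileum markers (-0.39 and -0.26). Leaving out 6.7 Gy day 4 replicate 2 was not tried for the marker lists. The other animals of its group had mean fibroblast levels of 0.91, 1.04 and 0.96, against 0.88, 0.95 and 0.94 in control replicates 2 to 4. Several of the small marker medians also moved by over 1.5 times when 1 animal was left out, either control replicate 1 or 6.7 Gy day 4 replicate 4. Without control replicate 1 they were 0.32 and 0.41 for macrophage, 0.09 and 0.46 for enteric glia and -0.19 and -0.33 for follicular dendritic cell markers, 0.21 for fibroblast and 0.02 for endothelial markers after 6.7 Gy (0.35 and 0.05 with it), and -0.11 for T cell and -0.13 for ileum markers after 7.4 Gy. Without 6.7 Gy day 4 replicate 4 the 6.7 Gy medians were -0.19 for ileum, -0.14 for mast cell, 0.21 for macrophage, 0.10 for endothelial, 0.52 for enteric glia and -0.06 for follicular dendritic cell markers. The part of these shifts in the changes of CTGF, CLU, ANXA1 and EGFR was not tested. Among 14160 genes, the brightest probe of CTGF was most like CNRIP1, TMEM100 and RBMS1 (r = 0.86, 0.84 and 0.84 over the 24 arrays), ANXA1 most like FOXC1 (0.91), CLU most like AGTR1 (0.87), HBEGF most like LASS4 and CLDN4 (0.91 and 0.90), NRG1 most like SLC7A6 (0.87), EGFR most like DCBLD2 (0.77), EREG most like MIOS (0.71), CYR61 most like ISLR and CTGF (0.77 for both) and AREGB most like LOC705500 and ATF3 (0.83 and 0.82). These are descriptions over animals that share treatment groups and tissue mix.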

How the data were processed

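Total RNA of whole ileum from 24 animals was labelled in 1 color and hybridized to Agilent Rhesus Macaque arrays; per the file headers, Feature Extraction 11.0.1.1 gave each spot a background-subtracted intensity and flags for signal well above background, and per the methods the authors normalized it in GeneSpring GX 11.0. The authors' deposited table holds log2 values scaled to the 75th percentile, and from these each probe's median over the arrays was subtracted. Here the deposited intensity was log2-transformed, the 75th percentile over the 43603 probes that were not controls was subtracted per array, and spots of a probe were averaged. After the same centring the values differed from the authors' table by at most 0.00207 log2 units.

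A probe entered the fit if all arrays of any of the 7 groups showed it well above background (36110 probes). limma 3.58.1 in R 4.3.3 was used with 1 mean per group and Benjamini-Hochberg adjustment, in 12 comparisons. The fit was tested on simulated data. Changes were called at adjusted p under 0.05 and at least 2-fold. All member probes were named, and a gene with several was led by its brightest. Of the pathway lists, genes called against the controls were named, with some defining members. The number of arrays limits the precision. Symbols given as gene IDs or accessions were updated through RefSeq (3184 and 259 probes). Members and lists were chosen with earlier results of these data known. Replicate numbers only name animals. Alternatives changed background correction (normexp with offset 50 on the median spot signal, the mean signal not being used here), normalization, filter, slide, position, replicate block, moderation, test and animals. Scan day, the first-scan-day arrays, the position 1 arrays, the AREGB probe, and the marker medians and CYR61 values without single animals were added after seeing the data. Sequences and other gut segments were not analysed here.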

Additional observations from a re-analysis of the deposited data

Results flagged for a closer look

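Of 95 sets of 4 animals at 1 probe, 2 held an animal far from the other 3, and chance alone marks about 1 in 20 such sets. They were NRG1 on day 4 after 7.4 Gy, where replicate 1 was at 1.23 and the next animal at -0.01, and NRG1 probe 4 on day 7 after 6.7 Gy, where replicate 2 was at -4.47 and the next at -3.64.

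Effects against the shared controls differed between days at the same dose for 2 probes by the limma test of the difference: NRG1 by -1.87 from day 4 to day 12 after 7.4 Gy, and its probe 4 by -1.41 from day 4 to day 7 after 7.4 Gy. For 3 genes every animal of 1 day lay on 1 side of the control mean and every animal of the other day on the opposite side, while the limma test of the difference did not pass. HBEGF differed by 0.60 from day 4 to day 12 after 6.7 Gy (adjusted p = 0.080), CLU by -1.04 from day 4 to day 12 after 7.4 Gy (adjusted p = 0.14), and ANXA1 by -0.76 over the same days and dose (adjusted p = 0.081).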

How the results depend on the processing

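Among changes of members and AREGB with an unadjusted limma p under 0.05, none reversed its direction under any alternative tried. In 9 of the 12 comparisons no member was called in the reported fit, and in 3 comparisons 1 was called. The call of CTGF on day 4 after 7.4 Gy went to 0 with normexp, no filter on dim probes, slide or scan day as a block, array position as a covariate, the methods' test after adjustment, and the first scan day's arrays alone. The call of NRG1 probe 4 from day 4 to day 7 after 7.4 Gy went to 0 with normexp, no filter, slide or scan day as a block, the methods' test with and without adjustment, and the first scan day's arrays alone. The call of NRG1 from day 4 to day 12 after 7.4 Gy went to 0 with no filter, slide or scan day as a block, the methods' test after adjustment, and the replicate block (-1.86, adjusted p = 0.057), and the methods' test without adjustment called 3. That test without adjustment called 1 on day 12 after 7.4 Gy against the controls. Leaving out each animal in turn gave 0 to 1 calls in each of these 3 comparisons and 0 to 1 on day 4 after 6.7 Gy (CTGF, without 6.7 Gy day 4 replicate 1). Normexp adds an offset, which lowers changes of dim probes by construction (CTGF 0.72, adjusted p = 0.053); the cause of the other losses was not tested. The replicate block changed no other call, and animals sharing a replicate number did not deviate together (median r = 0.03). Comparisons of days 7 and 12 with controls or day 4 could not be fitted with array position. With 4 or 2 animals per group, the 95% intervals of the member probes were 0.72 to 2.28 log2 units wide, and changes under 2-fold were not called at any p.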
